A study of Mus musculus with 8 samples.

Results

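Syk, Lyn, Btk, Blnk, Plcg2 and Inpp5d encode the kinases, the adaptor, the lipase and the inhibitory phosphatase that act just below the pre-B cell receptor (pre-BCR), and the accessible DNA at these 6 genes was followed over the first 2 h after induction of IKZF1 (Ikaros). A region belonged to a gene if a peak summit lay in the gene body or within 20 kb of it. By that rule the 6 loci held 169 of the 174718 regions found in any of the 8 libraries, namely 45 at Plcg2, 37 at Inpp5d, 29 at Lyn, 25 at Syk, 17 at Btk and 16 at Blnk. ATAC-seq, in which the transposase Tn5 cuts open DNA, was performed on the mouse pre-B line B3, which was first derived from a lymphoma. All 8 libraries came from B3 transduced with Ikaros-ERt2, a fusion to the hormone-binding part of the estrogen receptor that 4-hydroxytamoxifen (4-OHT) sends into the nucleus. The 0 h libraries had no treatment, and 4-OHT was given at 500 nM for 30 min, 1 h or 2 h to the others, so that each of the 4 times had 2 replicates. Because no untransduced or solvent-treated cells were measured, IKZF1, 4-OHT and solvent cannot be told apart as the source of a change. Nothing in the labels says that the 2 replicates were separate cultures, so the p-values measure only the spread between these libraries.

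The pre-BCR is made of an immunoglobulin heavy chain and a surrogate light chain, and it signals through Cd79a and Cd79b. Src-family kinases such as Lyn phosphorylate the tails of these subunits, Syk docks there, and the adaptor Blnk then brings Btk and phospholipase C gamma 2 (Plcg2) together, which leads to calcium release. SHIP1, the product of Inpp5d, removes a phosphate from the membrane lipid that recruits Btk and so limits the signal. IKZF1 is a zinc finger factor that binds DNA with a GGAA or GGGA core and is known to restrain the expansion of pre-B cells.

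Of the 8 regions that passed the test at 2 h, 5 had lost and 3 had gained strength relative to other regions. Their sequences are shown because these are the sites on which the results turn. Each line gives 140 bases of the plus strand of GRCm38 around the summit of the highest peak of the region, named by its distance from the annotated gene start in the direction of transcription. Capitals mark the IKZF1 core words GGAA and GGGA and, for the other strand, TTCC and TCCC. The 5 regions that were lower at 2 h were these:
Lyn, 4.9 kb downstream, chr4:3682999-3683138: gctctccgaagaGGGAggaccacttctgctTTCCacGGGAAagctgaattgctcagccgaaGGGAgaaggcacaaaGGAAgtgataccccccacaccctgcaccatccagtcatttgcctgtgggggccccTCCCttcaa
Plcg2, 3.3 kb upstream, chr8:117494980-117495119: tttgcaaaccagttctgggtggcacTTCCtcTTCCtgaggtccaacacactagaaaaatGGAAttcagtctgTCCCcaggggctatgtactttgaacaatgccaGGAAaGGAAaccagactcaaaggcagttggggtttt
Plcg2, 28.1 kb downstream, chr8:117526327-117526466: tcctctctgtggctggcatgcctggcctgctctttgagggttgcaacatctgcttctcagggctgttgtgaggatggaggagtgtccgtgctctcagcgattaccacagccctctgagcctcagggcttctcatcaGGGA
Plcg2, 45.7 kb downstream, chr8:117543897-117544036: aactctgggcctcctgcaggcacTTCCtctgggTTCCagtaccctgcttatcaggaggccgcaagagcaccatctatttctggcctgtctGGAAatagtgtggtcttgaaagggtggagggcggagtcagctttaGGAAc
Inpp5d, 1.8 kb downstream, chr1:87621997-87622136: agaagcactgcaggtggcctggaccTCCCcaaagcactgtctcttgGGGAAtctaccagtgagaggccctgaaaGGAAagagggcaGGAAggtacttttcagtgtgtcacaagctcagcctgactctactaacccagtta

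The 3 regions that were higher at 2 h were these:
Lyn, 0.8 kb downstream, chr4:3678861-3679000: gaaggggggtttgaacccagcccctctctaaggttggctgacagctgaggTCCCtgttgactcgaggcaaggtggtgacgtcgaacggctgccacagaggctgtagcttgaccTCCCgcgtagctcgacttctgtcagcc
Plcg2, 31.1 kb downstream, chr8:117529265-117529404: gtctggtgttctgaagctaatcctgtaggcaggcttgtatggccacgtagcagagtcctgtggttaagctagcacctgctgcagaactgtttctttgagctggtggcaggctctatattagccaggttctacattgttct
Inpp5d, 5.2 kb downstream, chr1:87625422-87625561: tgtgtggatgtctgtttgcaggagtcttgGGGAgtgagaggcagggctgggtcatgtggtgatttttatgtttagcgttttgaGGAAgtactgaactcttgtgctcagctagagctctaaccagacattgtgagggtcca

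The printed window of the Lyn region 4.9 kb downstream held 7 core words, that of the Plcg2 region 3.3 kb upstream 6, and that of the Inpp5d region 1.8 kb downstream 5. Among the regions that were higher, the Plcg2 window 31.1 kb downstream held 0 core words and those of Lyn and Inpp5d held 2 each. These counts depend on the window. A second window of 200 bp was centred on the summit in 0 h replicate 1, which can lie apart from that of the highest peak. In this second window the higher Lyn region held 4.0 core words per 100 bp, as many as the lower Inpp5d region (4.0). The 3 lower Plcg2 regions held fewer (2.0 to 3.0). The Plcg2 region 28.1 kb downstream, although lower at 2 h, held 1 core word in its printed window. At Syk, Btk and Blnk no region passed the test, and the region with the largest fall in mean percentile at each of these genes is shown for comparison:
Syk, 2.1 kb downstream, chr13:52585220-52585359: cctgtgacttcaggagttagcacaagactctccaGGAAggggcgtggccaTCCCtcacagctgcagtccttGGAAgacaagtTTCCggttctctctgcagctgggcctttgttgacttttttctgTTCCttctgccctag
Btk, 16.8 kb downstream, chrX:134566691-134566830: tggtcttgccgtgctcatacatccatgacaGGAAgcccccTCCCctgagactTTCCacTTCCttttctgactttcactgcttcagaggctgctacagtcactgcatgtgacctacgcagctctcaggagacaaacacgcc
Blnk, 1.8 kb upstream, chr19:40996238-40996377: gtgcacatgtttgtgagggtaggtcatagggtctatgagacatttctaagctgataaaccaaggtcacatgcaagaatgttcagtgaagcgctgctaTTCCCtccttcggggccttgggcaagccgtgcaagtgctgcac

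The lists give, for each peak, its fold over the local background and the −log10 p-value of that excess, and for 100% of the peaks of each list a whole number of fragments at the summit gave both values, to within 0.001 of the −log10 p-value. Each library held 85903 to 103897 peaks, with a median of 11 to 14 fragments at the summit. This depth limits the precision of a single region, and PCR copies are not independent molecules. Of the 169 regions, 66 had a peak in all 8 lists and could be tested, 68 were in 2 to 7 lists and 35 were in 1 list. The strength of a tested region is given as the percentile of its fold among the 47875 regions with a peak in every list, and as fragments at its summit. Its shift is the difference in the normal score of that rank from 0 h, tested with limma over all 47875 regions with a threshold of 0.01 on the adjusted p. The filter left out regions that closed so far that a list no longer held them, and these were counted as lost if both 0 h lists and neither later list had a peak, or as gained in the reverse case. Among marker genes of the B lineage, Cd79a, Cd79b, Pax5, Ebf1 and Igll1 had a promoter peak in all 8 lists, and Vpreb1 and Rag1 had one in some list. No promoter peak was held by all 8 lists at the 5 T cell, 5 myeloid or 4 erythroid marker genes, although 2, 1 and 2 of these genes had one in some list.

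At 30 min, 0 of the 66 tested regions were lower and 0 were higher by limma, beside 0.0% and 0.0% of all tested regions. At an unadjusted limma p under 0.05, 12 of the 66 were lower and 7 of the 66 higher at that time, beside 9.94% and 9.51% of all tested regions. At 1 h, 2 regions (3.03%) were lower, beside 2.51% of all tested regions, and 0 were higher, beside 1.1%. At that time 15 of the 66 were lower and 7 of the 66 higher at an unadjusted limma p under 0.05, beside 15.5% and 14.9% of all tested regions. At 2 h, 5 regions (7.58%) were lower, beside 4.71% of all tested regions, and 3 (4.55%) were higher, beside 2.28%. At an unadjusted limma p under 0.05 there were 13 of the 66 lower and 9 of the 66 higher, beside 17.4% and 17.1% of all tested regions. Whether these shares differ from the background was not tested, and the median shift at 2 h was 0.03 at the loci and 0.06 over all tested regions. With 1 library left out, the number lower at 2 h was 1 without 0 h replicate 1, 2 without 0 h replicate 2 and 1 without either 2 h replicate, and the number higher was 0 to 1 without any 1 of the 8. The fall at Lyn 4.9 kb downstream passed the threshold at 2 h without each of the 8 libraries in turn. Its call at 1 h was lost without any 1 of the 4 libraries at 0 h and 1 h (limma adjusted p of 0.016 to 0.0273). The falls at Plcg2 3.3 kb upstream, Plcg2 28.1 kb and Inpp5d 1.8 kb downstream missed it without any 1 of the 4 libraries at 0 h and 2 h (limma adjusted p of 0.0111 to 0.0365). That at Plcg2 45.7 kb downstream missed it without any of these but 0 h replicate 2 (adjusted p of 0.0201 to 0.0222). The calls lay at Lyn, Plcg2 and Inpp5d, which held 11, 16 and 14 of the 66 tested regions. A call at one gene and not at another does not show that the genes differ. In bulk cells, fewer cells with an open site and a less open site in every cell cannot be told apart.

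**Figure D1:**
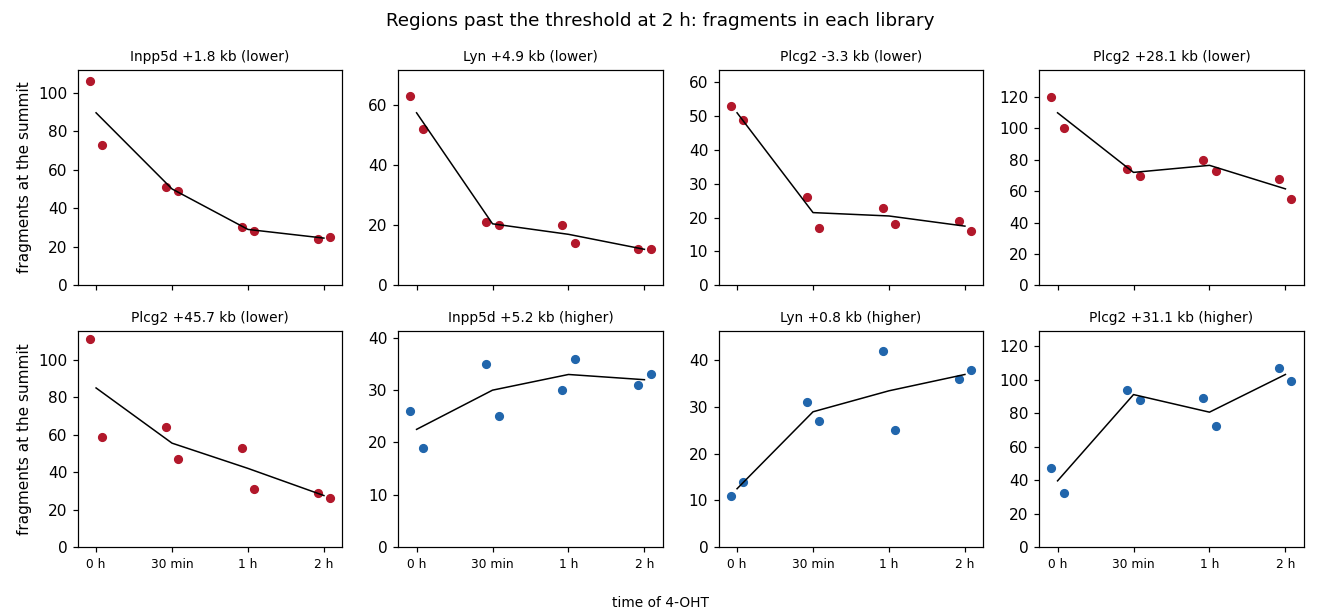
Fragments at the summit (vertical axis, starting at 0) in each library at the 8 regions past the threshold at 2 h, against the time of 4-OHT. Points are libraries, with replicate 1 left of replicate 2, and lines join the means. At the 5 regions that were lower, both 2 h libraries lie under both 0 h libraries, and at Lyn 4.9 kb downstream they fall from 63 and 52 to 12 and 12. At the 3 that were higher both 2 h libraries lie above both 0 h libraries, by the smallest margin at Inpp5d 5.2 kb downstream (26 and 19 against 31 and 33).

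Lyn, the Src-family kinase that both starts and restrains receptor signalling, held the region with the largest shift among the 6 loci. This region, 4.9 kb downstream of the start in an intron of Lyn that also lies in an intron of the noncoding gene Gm26857 (chr4:3682923-3683205), had 63 and 52 fragments at 0 h, 21 and 20 after 30 min, 20 and 14 after 1 h and 12 and 12 after 2 h. The libraries at each later time lay under both 0 h libraries. Its mean percentile was 63.8 ± 5.7 (SD, n = 2) at 0 h, 14.0 ± 6.09 after 30 min, 5.59 ± 3.72 after 1 h and 0.667 ± 0.219 after 2 h. The shift was −1.99 (SE 0.29, limma adjusted p = 0.00355) at 1 h and −2.84 (SE 0.29, adjusted p = 0.000968) at 2 h. At 30 min the adjusted p was 0.0362. In fragments over the library background, centred on the median tested region, the change at 2 h was −2.44 on the log2 scale (SE 0.21).

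Closer to its start, Lyn held 3 promoter regions, of which 1 passed the threshold. The region at the start itself had 44 and 36 fragments at 0 h and 38 and 30 after 2 h, with a shift of −0.34 (SE 0.26, limma adjusted p = 0.385). The region 0.5 kb downstream had 42 and 22 fragments at 0 h and 43 and 42 after 2 h (adjusted p = 0.141). The region 0.8 kb downstream, over an exon of Gm26857 (chr4:3678847-3679080), had 11 and 14 fragments at 0 h, 31 and 27 after 30 min, 42 and 25 after 1 h and 36 and 38 after 2 h. All 6 libraries with 4-OHT lay above both 0 h libraries, and the region rose from a mean percentile of 2.08 ± 2.92 to 47.9 ± 8.3 after 2 h (shift 2.66, SE 0.52, limma adjusted p = 0.00794). Without 0 h replicate 1, in which it had the percentile 0.0115, the shift was 1.68 (adjusted p = 0.0271). Without any other library but 0 h replicate 2 the adjusted p was also above the threshold, at 0.0115 to 0.0543. Strand was not measured, so a promoter of Lyn and one of Gm26857 cannot be told apart here.

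Lyn also held 2 more intronic regions whose later libraries all lay under both 0 h libraries but whose adjusted p missed 0.01. These 2 were chosen after their values were seen. The share of all tested regions with this order of libraries was not counted, for these 2 or for any region named here. At 7.2 kb downstream the fragments were 60 and 55 at 0 h, 26 and 16 after 30 min, 23 and 21 after 1 h and 21 and 20 after 2 h (adjusted p = 0.0303 at 2 h). Its local background was 2.11 fragments at 0 h and 0.774 at 2 h, and on the scale of fragments over the library background, centred, the 2 h change was −1.67 (SE 0.23, limma adjusted p = 0.000636). At 81.0 kb downstream they were 33 and 29, then 17 and 6, 15 and 12, and 11 and 12 (adjusted p = 0.0176 at 2 h). The highest-ranking Lyn region, 46.8 kb downstream, had 53 and 34 fragments at 0 h and 33 and 30 after 2 h, with a mean percentile of 95.0 ± 3.52 and 86.3 ± 3.08 (adjusted p = 0.156).

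Syk, the kinase that docks on the phosphorylated receptor tails, had no region past the threshold among the 12 tested. Its largest fall in mean percentile was 2.1 kb downstream in an intron, from 71.4 ± 17.9 at 0 h to 15.8 ± 12.4 after 2 h, with 34 and 41 fragments at 0 h, 15 and 24 after 30 min, 21 and 19 after 1 h and 20 and 11 after 2 h (shift −1.69, SE 0.43, limma adjusted p = 0.022). The 6 later libraries lay under both 0 h libraries, but their own spread was wide. Its largest rise was 75.5 kb downstream, beyond the gene, with 7 and 4 fragments at 0 h, 10 and 10 after 30 min, 16 and 11 after 1 h and 13 and 17 after 2 h (adjusted p = 0.0137). The later libraries again did not overlap those at 0 h, at low counts. On the scale of fragments over the library background, centred, this region passed the threshold at 2 h (log2 change 1.31, SE 0.26, limma adjusted p = 0.00492).

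Near the annotated Syk start, the intronic region 0.4 kb downstream had 19 and 16 fragments at 0 h, 15 and 15 after 30 min, 12 and 12 after 1 h and 11 and 11 after 2 h (adjusted p = 0.0254). Between this region and the one 2.1 kb downstream, the intronic region 1.6 kb downstream had 12 and 8 fragments at 0 h, 20 and 21 after 30 min, 22 and 23 after 1 h and 18 and 18 after 2 h. All its later libraries lay above both at 0 h, with a shift of 1.42 at 1 h (limma adjusted p = 0.0109) and 1.14 at 2 h (adjusted p = 0.0191). In fragments over the library background, centred, it passed the threshold at 1 h (log2 change 1.02, adjusted p = 0.00908) but not at 2 h (adjusted p = 0.0372). A second Syk start 13.7 kb downstream, whose region ranked highest among the tested Syk promoter regions, had 16 and 23 fragments at 0 h and 24 and 19 after 2 h (adjusted p = 0.902). The strongest Syk region lay 10.5 kb upstream, with 62 and 52 fragments at 0 h, 74 and 66 after 30 min, 93 and 75 after 1 h and 82 and 71 after 2 h. Its mean percentile was 90.0 ± 0.462 at 0 h and 92.7 ± 2.47 after 2 h (adjusted p = 0.647). Beside it, the region 9.9 kb upstream had no peak at 0 h, 1 peak after 30 min with 13 fragments, and 22 and 21 fragments after 1 h and 22 and 22 after 2 h, which made it the gained region with the most fragments at the 6 loci. Peaks were also gained at 2 h at 11.0 kb and 0.5 kb upstream, and 1 weak region 17.9 kb upstream was lost (8 and 7 fragments at 0 h).

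Btk, the Tec-family kinase that activates Plcg2, showed no region past the threshold among the 7 tested, of which 3 lay at promoters of its neighbours Timm8a1, Rpl36a, Gla and Hnrnph2. The largest fall was 16.8 kb downstream in an intron, with 39 and 30 fragments at 0 h, 24 and 21 after 30 min, 23 and 25 after 1 h and 25 and 19 after 2 h. All later libraries lay under both 0 h libraries, and the mean percentile was 62.2 ± 6.18 at 0 h and 30.2 ± 9.67 after 2 h (shift −0.84, SE 0.27, limma adjusted p = 0.0544). The intronic region 19.0 kb downstream was the strongest at Btk and had both the highest percentile and the largest rise, from 90.7 ± 4.34 to 94.4 ± 0.596, with 76 and 45 fragments at 0 h and 65 and 59 after 2 h (adjusted p = 0.583). No region within 1 kb of the Btk start could be tested. The one 0.1 kb downstream had 13 and 11 fragments at 0 h and no peak in any later list, and was counted as lost. Other weak peaks near the start were still held later. The region 0.4 kb downstream had 17 fragments in 0 h replicate 1, 15 and 15 after 30 min, 11 and 11 after 1 h and no peak at 2 h. The region 1.2 kb downstream had 16 fragments in 0 h replicate 1, 17 and 12 after 30 min, and 11 and 14 in replicate 1 after 1 h and 2 h. The region at the Rpl36a promoter, 2.1 kb upstream of Btk, had 54 and 44 fragments at 0 h and 49 and 44 after 2 h (adjusted p = 0.954).

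Blnk, the adaptor that links Syk to Btk and Plcg2, had no region past the threshold among the 6 tested. Its promoter region, 0.3 kb downstream in an untranslated exon part, had 52 and 36 fragments at 0 h, 51 and 52 after 30 min, 55 and 49 after 1 h and 63 and 42 after 2 h. The groups overlapped, and the mean percentile was 60.6 ± 1.92 at 0 h and 72.6 ± 12.1 after 2 h (shift 0.35, SE 0.29, limma adjusted p = 0.433). The largest fall was 1.8 kb upstream, with 28 and 29 fragments at 0 h, 22 and 17 after 30 min, 18 and 24 after 1 h and 19 and 13 after 2 h, all later libraries under both at 0 h (shift −1.32, SE 0.35, adjusted p = 0.0263). The largest rise in mean percentile was its neighbour 1.2 kb upstream, with 15 and 19 fragments at 0 h and 20 and 29 after 2 h. Its fragments did not overlap between these times, but its percentiles did (1.14 and 17.4, then 7.88 and 34.9, limma adjusted p = 0.331). The strongest Blnk region, in an intron 31.3 kb downstream, had 42 and 43 fragments at 0 h and 38 and 35 after 2 h (adjusted p = 0.443). One region that could not be tested, 4.1 kb upstream, had 40 and 24 fragments at 0 h and 12 to 15 in the 5 later lists that held it.

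Plcg2, the lipase that turns the signal into calcium release, held 4 of the 8 calls. The region 3.3 kb upstream (chr8:117494890-117495317) had 53 and 49 fragments at 0 h, 26 and 17 after 30 min, 23 and 18 after 1 h and 19 and 16 after 2 h. Most of this difference was present at 30 min, and it passed the threshold at 1 h (shift −1.64, SE 0.31, limma adjusted p = 0.00947) and at 2 h (shift −2.01, SE 0.31, adjusted p = 0.0028). The call at 1 h was lost without any 1 of the 8 libraries (adjusted p of 0.0113 to 0.0632). The intronic region 45.7 kb downstream (chr8:117543829-117544122) had 111 and 59 fragments at 0 h, 64 and 47 after 30 min, 53 and 31 after 1 h and 29 and 26 after 2 h. It fell from a mean percentile of 91.6 ± 7.35 to 27.7 ± 0.603, with means that stepped down at each time (shift −2.07, SE 0.32, adjusted p = 0.00292 at 2 h).

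Close to each other in Plcg2 introns lay a region that was lower and a region that was higher. At 28.1 kb downstream (chr8:117526167-117526512) the fragments were 120 and 100 at 0 h, 74 and 70 after 30 min, 80 and 73 after 1 h and 68 and 55 after 2 h, with a shift of −1.4 at 2 h (SE 0.25, limma adjusted p = 0.00547). At 31.1 kb downstream (chr8:117529221-117529522) they were 47 and 32 at 0 h, 94 and 88 after 30 min, 89 and 72 after 1 h and 107 and 99 after 2 h, with a shift of 1.3 (SE 0.26, adjusted p = 0.00904). The higher call was lost without any 1 of the 8 libraries (adjusted p of 0.0124 to 0.0627), with shifts of 1.16 to 1.43. The local background of these regions was 4.35 and 4.5 fragments at 0 h, against 4.81 and 5.22 at 2 h, so the fragments moved in opposite ways over a background that changed little. Between them lay 2 tested regions. The one 29.4 kb downstream had 34 and 21 fragments at 0 h and 20 and 21 after 2 h, with a shift of −1.59 (SE 0.38, adjusted p = 0.0175). The one 29.8 kb downstream had 62 and 40, against 92 and 64 (adjusted p = 0.452). A region 34.3 kb downstream was gained, with no peak at 0 h, 18 and 15 fragments after 30 min, 20 and 19 after 1 h and 22 and 18 after 2 h.

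The tested promoter region of Plcg2, 1.0 kb downstream in an intron, had 42 and 37 fragments at 0 h, 44 and 37 after 30 min, 33 and 27 after 1 h and 35 and 32 after 2 h (shift −0.31, SE 0.28, limma adjusted p = 0.468). The region over the start itself was held by 7 lists, with 28 fragments and no peak at 0 h and 42 and 31 fragments after 2 h. A further region 0.4 kb downstream was gained, with 25 and 13 fragments after 30 min and 19 and 17 after 2 h. The strongest Plcg2 region over all libraries, 128.1 kb downstream, had 22 and 19 fragments at 0 h and 27 and 23 after 2 h (adjusted p = 0.615).

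Inpp5d, which encodes the inhibitor SHIP1, held 1 region that was lower and 1 that was higher, both in its first 6 kb. The region 1.8 kb downstream (chr1:87621822-87622279) had 106 and 73 fragments at 0 h, 51 and 49 after 30 min, 30 and 28 after 1 h and 24 and 25 after 2 h. The groups did not overlap, with the means stepping down at each time (shift −1.61 at 2 h, SE 0.27, limma adjusted p = 0.00438). On the scale of fragments over the library background, centred, the change was −2.03 (SE 0.2). The region 5.2 kb downstream (chr1:87625406-87625561) had 26 and 19 fragments at 0 h, 35 and 25 after 30 min, 30 and 36 after 1 h and 31 and 33 after 2 h, and its mean percentile rose from 2.49 ± 1.73 to 35.5 ± 9.19 (shift 1.63, SE 0.32, adjusted p = 0.00784). The call was lost without any library but those at 1 h (adjusted p of 0.0114 to 0.0579). Its local background was 4.49 fragments at 0 h and 2.27 at 2 h, and in fragments over the library background, centred, the change was 0.34 (SE 0.23, adjusted p = 0.29). This call therefore holds for the fold over the local background and not for the fragments themselves.

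The same fall in local background lay under the Inpp5d promoter region, which covers the start and had 50 and 38 fragments at 0 h, 51 and 42 after 30 min, 48 and 39 after 1 h and 35 and 33 after 2 h. Its local background was 3.6 fragments at 0 h and 1.67 at 2 h. Its mean percentile was 42.1 ± 7.07 at 0 h and 54.3 ± 3.43 after 2 h (limma adjusted p = 0.419), above 0 h although the fragments were fewer. The strongest Inpp5d region, 37.9 kb downstream, had 66 and 56 fragments at 0 h and 47 and 40 after 2 h (adjusted p = 0.619). The 3 lost regions with the most fragments at the 6 loci all lay in Inpp5d introns, with 24 and 18 fragments at 0 h at 16.9 kb downstream, 17 and 21 at 40.6 kb and 18 and 17 at 18.1 kb. That at 16.9 kb still had 14 and 12 fragments after 30 min, and that at 18.1 kb had 15 in 1 h replicate 2. A region 1.3 kb downstream was gained, with 22 and 17 fragments after 30 min and 20 and 22 after 2 h.

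**Figure D2:**
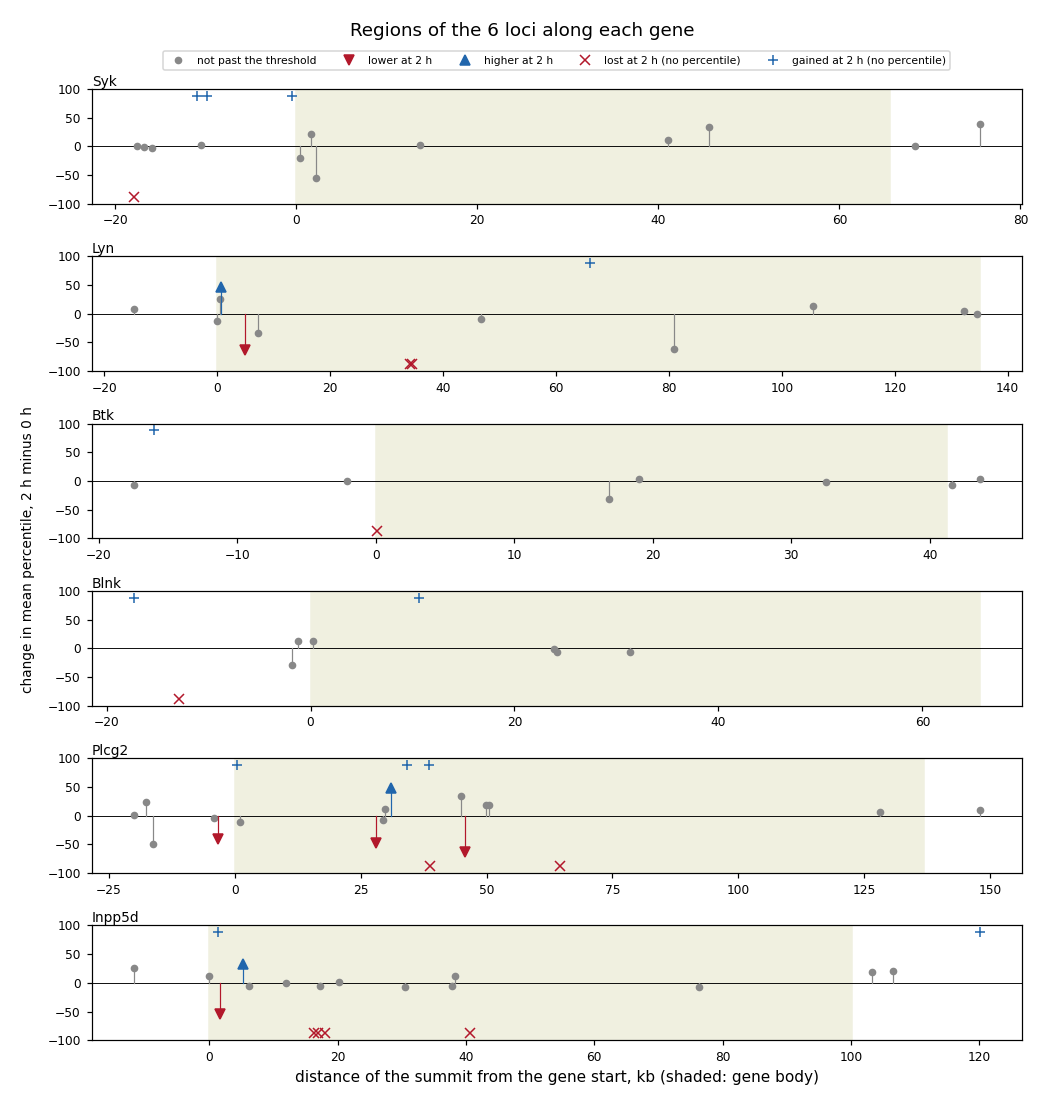
Change in mean percentile from 0 h to 2 h (vertical axis) of each tested region against the distance of its summit from the gene start in kb, with the gene body shaded and 1 panel for each gene. Red and blue triangles are regions lower and higher past the threshold, grey points are the rest, and crosses and plus signs mark the places of the 11 lost and 12 gained regions, which have no percentile. The calls at Lyn and Inpp5d lie in the first 6 kb of the gene, and those at Plcg2 lie from 3.3 kb upstream to 45.7 kb downstream.

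Peaks were also lost from and gained in the lists at the loci. A lost region can lie beside one that is held. At Plcg2 the region 38.8 kb downstream (chr8:117537034-117537158) was lost at 2 h, and its neighbour 38.6 kb downstream (chr8:117536888-117537022) was gained. At Syk the lost region 17.9 kb upstream lay beside one 17.6 kb upstream with a peak in all 8 lists. Whether such a pair is 1 site with a moved summit was not tested. Of the 88 regions with a peak in both 0 h lists, 9 (10.2%) were lost at 30 min, beside 10.9% of all such regions, 12 (13.6%) at 1 h, beside 14.6%, and 11 (12.5%) at 2 h, beside 16.6%. Of the 43 regions with a peak in neither 0 h list, 6 (14.0%) were gained at 30 min, beside 11.1% of all such regions, 12 (27.9%) at 1 h, beside 19.2%, and 12 (27.9%) at 2 h, beside 23.9%. These shares were not tested, and with 2 libraries against 2 an exact two-sided permutation test on 1 region cannot go below p = 0.333. The counts rest on single lists. Leaving out a 0 h library also changes how many regions can be lost or gained. Without 0 h replicate 1, of 100 regions 17 were lost at 30 min (beside 19.1% of all such regions), 20 at 1 h (22.0%) and 18 at 2 h (23.8%). Of 69 regions 18, 22 and 22 were gained, beside 15.8% to 25.9%. Without 0 h replicate 2, 19 (beside 19.8%), 22 (23.0%) and 23 (24.7%) of 114 regions were lost, and 8, 14 and 15 of 55 were gained, beside 12.8% to 24.1%. Inpp5d had 4 of the 11 regions lost at 2 h, out of its 21 regions with a peak in both 0 h lists (19.0%). Syk and Plcg2 had 3 each of the 12 gained, out of 4 and 16 regions with a peak in neither 0 h list.

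As whole loci, the tested regions of Btk ranked highest at 0 h, with a mean percentile of 60.6 ± 0.0316 (SD over 2 libraries), followed by Lyn at 55.4 ± 0.485 and Plcg2 at 43.2 ± 2.79. Inpp5d (39.2 ± 2.37), Blnk (38.8 ± 0.139) and Syk (38.6 ± 4.71) did not differ beyond their spread. At 2 h the means were 54.6 ± 5.15 for Btk, 47.6 ± 0.669 for Lyn, 40.1 ± 2.02 for Plcg2, 41.9 ± 2.46 for Inpp5d, 35.6 ± 2.31 for Blnk and 41.4 ± 2.02 for Syk. Lyn had the largest difference from 0 h, with both 2 h libraries (47.2 and 48.1) under both 0 h libraries (55.7 and 55.1), and the 2 h libraries of Btk and Blnk also lay under those at 0 h, while the libraries of the 2 times overlapped at Syk, Plcg2 and Inpp5d. These means cover only regions with a peak in every list. Over all peaks of a locus, by the median percentile among the peaks of each list, Lyn was at 59.2 and 35.2 at 0 h and at 67.3 and 56.4 after 2 h, with a mean of 47.2 against 61.9 and libraries that overlapped. Inpp5d so measured was at 28.8 and 43.8 at 0 h and at 53.6 and 63.3 after 2 h, without overlap. Blnk was at 49.4 in both and then at 28.8 and 35.8. The 6 loci together held 102 to 118 peaks in each library, with 116 and 102 at 0 h and 118 and 111 after 2 h.

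Among 6055 other protein-coding genes with at least 5 tested regions, the gene whose mean percentile over the 8 libraries was most like that of each member, by the root-mean-square difference of the centred profiles, was Ppil6 for Inpp5d (0.705 percentile points), Pde4c for Plcg2 (0.714), Cep97 for Blnk (0.829), U2af2 for Btk (1.02), Mlycd for Syk (1.05) and Nhs for Lyn (1.47). With so many genes compared over 8 libraries, such matches are a description.

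**Figure D3:**
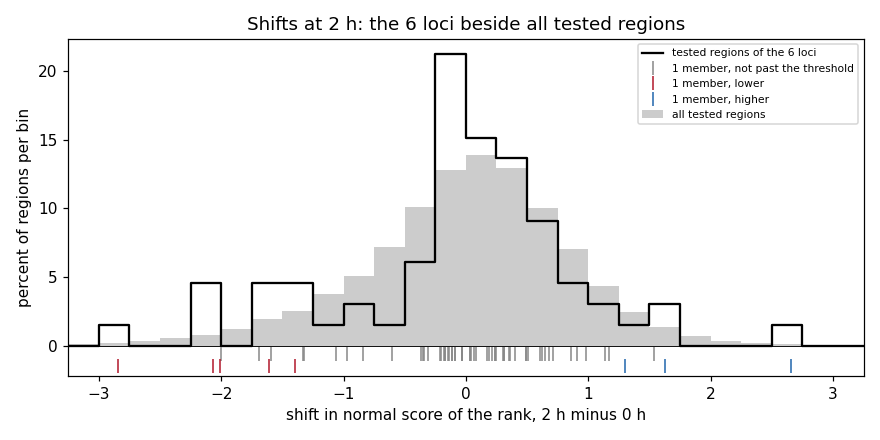
Shift in the normal score of the rank from 0 h to 2 h (horizontal axis) of all 47875 tested regions (grey bars, percent per bin) and of the 66 tested regions of the 6 loci (black line), with 1 tick for each of the 66 under the axis, red where lower and blue where higher past the threshold. Both centre near 0, with medians of 0.06 and 0.03, and the member with the largest shift in each direction is a Lyn region (−2.84 and 2.66).

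The percentile rests on the fold over the local background, so the fragments were examined beside it. The local background was lower at 2 h than at 0 h at 42 of the 66 tested regions, with a median of 1.66 fragments at 0 h and 1.26 at 2 h. In log2 fragments over the library background, the median change of the 47875 regions from 0 h to 2 h was 0.22. The median level was 5.93 at 0 h and 6.09 at 2 h. Changes on this scale were therefore centred on the median of each library. So measured, the sign of the 2 h change was that of the percentile shift at 58 of the 66 regions. At 30 min, 3 of the 66 regions were already lower on this scale by limma, beside 1.3% of all tested regions, and 0 were higher, beside 0.322%. These were Lyn 4.9 kb downstream (log2 change −1.63, adjusted p = 0.00377), Lyn 7.2 kb downstream (−1.64, adjusted p = 0.00435) and Plcg2 3.3 kb upstream (−1.43, adjusted p = 0.00666). At 1 h, 7 of the 66 were lower, beside 6.63%, and 1 of the 66 was higher, beside 3.48%. At 2 h, 9 of the 66 were lower, beside 9.37%, and 3 of the 66 were higher, beside 5.43%. The 9 were the 5 lower by percentile, the Lyn regions 7.2 kb and 81.0 kb downstream, Inpp5d 6.3 kb downstream (88 and 68 fragments at 0 h, 49 and 42 after 2 h) and Plcg2 16.3 kb upstream (64 and 35, then 26 and 23), and the 3 were Lyn 0.8 kb, Plcg2 31.1 kb and Syk 75.5 kb downstream. This scale was chosen after the data were seen. The part of the local background in the percentile shifts was not tested beyond these values.

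**Figure D4:**
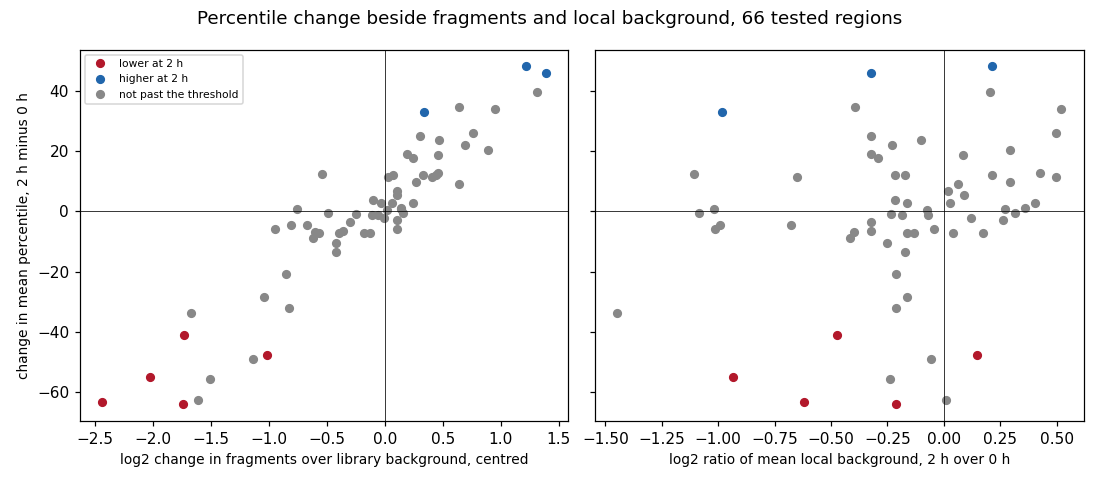
Change in mean percentile from 0 h to 2 h (vertical axis) of the 66 tested regions against the log2 change in fragments over the library background, centred (left), and against the log2 ratio of the mean local background (right). Each point is a region, red where lower and blue where higher past the threshold. The Inpp5d region 5.2 kb downstream is the blue point with a small fragment change (0.34) and a local background that fell from 4.49 to 2.27.

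Words were counted in 200 bp around the summit in the first 0 h list that had a peak. Where neither had one, the summit of the highest peak was used. In these windows the 169 regions held 2.16 ± 1.21 IKZF1 core words per 100 bp (SD over regions), with both strands counted. Over all 174718 regions the value was 2.09 ± 1.22. The 5 regions lower at 2 h held 3.4 ± 1.39, the 3 higher ones 1.67 ± 2.08 and the other 58 tested regions 2.32 ± 1.31. Over all tested regions the values were 3.03 ± 1.16 in the 2256 that were lower and 1.52 ± 0.95 in the 1092 that were higher. The longer words GGGAA or TTCCC were in 67 of the 169 regions (39.6%), beside 41.9% of all regions. GAGGAAG or its complement CTTCCTC, which PU.1 can bind and which contains a core word, was in 38 (22.5%), beside 14.1% of all regions. It was in 3 of the 5 lower regions, all at Plcg2, and in 1 of the 3 higher ones, at Inpp5d. Over all tested regions it was in 23.9% of those lower at 2 h and in 13.8% of those higher. The Runx word TGTGGT or ACCACA was in 46 (27.2%), beside 25.8%, and was held by 17 of the 37 Inpp5d regions. CAGCTG, an E protein word, was in 26 (15.4%), beside 16.8%. A word in a window shows neither binding nor a cause.

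The other genes of the pathway, 56 in all by a list of receptor subunits, kinases, adaptors, inhibitors and the lipase Plcg1, held 399 tested regions. At 2 h, 25 of these (6.27%) were lower, beside 4.71% of all tested regions, and 6 (1.5%) were higher, beside 2.28%. Inhibitors of the signal had 11 of 109 regions lower (10.1%) and 1 higher, with 3 each of the lower regions at Ptpn6, which encodes the phosphatase SHP-1, and at Csk, which switches off Src-family kinases. Adaptors and exchange factors had 7 of 124 lower (5.65%), 2 of them at Pik3ap1 and 2 at Pik3r1, and 2 higher. Other kinases had 5 of 109 lower (4.59%), 2 of them at Pik3cd, and 3 higher, 1 of them at Tec. Receptor subunits and coreceptors had 2 of 52 lower, at Vpreb3 and Ptprc, and 0 higher, and the 5 regions of Plcg1 gave 0 calls. Whether these lists differ from the background or from each other was not tested.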

How the data were processed

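ATAC-seq was performed by the authors on B3 cells with Ikaros-ERt2 at 4 times, 2 libraries each. The submitters' processing notes name BWA 0.7.17, MACS2 2.1.2 and builds GRCm38 and mm10. The authors shifted read ends for the Tn5 offset, kept short nucleosome-free fragments and called peaks on each library alone without a control. The study's methods name a human genome, but no peak on the 21 chromosomes reaches beyond the ends of GRCm38, which is used here with GENCODE vM21. The deposited lists give the ratio (fold) of the fragment pileup at each summit over the local background, its −log10 p-value, its −log10 q-value and a display score, which was not used. The deposited values are not scaled between libraries.

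Overlapping peaks of the 8 lists were merged into regions. Folds were ranked among the 47875 regions with a peak in every list and fitted in limma 3.58.1 (R 4.3.3) as 1 model of 4 times, with Benjamini-Hochberg adjustment over all regions. Fragments and local background were recovered from fold and p-value under the Poisson model of the caller, where whole numbers gave the deposited −log10 p-value to within 0.001 for 100% of peaks. Both steps were tested on simulated data. A promoter region lies within 1 kb of a start site.

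Named regions are, at each gene, the promoter region and the region with the highest mean percentile, the largest fall and the largest rise, every call, and the 3 lost and 3 gained regions with the most fragments. Others were chosen after their values were seen. The genes and lists were chosen with earlier results of these data known. A count table was not used here, and the results of a few genes of the lists are not reported here by name. Alternatives covered the strength measure, region set, ranking, model, locus limits, peak threshold and each left-out library.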

Additional observations from a re-analysis of the deposited data

Results flagged for a closer look

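The strongest Lyn region, 46.8 kb downstream of the start, differed in direction between times. Its mean percentile was 95.0 ± 3.52 at 0 h (SD, n = 2), 98.6 ± 0.316 after 30 min, 96.0 ± 1.36 after 1 h and 86.3 ± 3.08 after 2 h, so that both 30 min libraries lay above and both 2 h libraries below both 0 h libraries, with a difference of −8.72 percentile points from 0 h to 2 h. It had 53 and 34 fragments at 0 h, 57 and 50 after 30 min, 44 and 37 after 1 h and 33 and 30 after 2 h. The difference between the 2 times was not tested, and neither shift from 0 h passed the threshold (limma adjusted p = 0.362 and 0.156).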

How the results depend on the processing

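The counts of calls rest on few libraries. With each library left out in turn, where a lone sample is assumed to vary like the other groups, the lower regions numbered 0 to 2 at 1 h and 1 to 6 at 2 h, and the higher ones 0 to 1 at 2 h. At 30 min both counts stayed at 0, as did the higher count at 1 h. The lower count at 2 h was 1 without 0 h replicate 1, 2 without 0 h replicate 2 and 1 without either 2 h library. Of the 8 named calls at 2 h, the fall at Lyn 4.9 kb downstream passed in all 15 alternatives (adjusted p 0.000111 to 0.00907), while those at Plcg2 45.7 kb downstream, Plcg2 3.3 kb upstream, Inpp5d 1.8 kb and Plcg2 28.1 kb downstream passed in 12, 11, 10 and 9. The higher calls at Plcg2 31.1 kb, Inpp5d 5.2 kb and Lyn 0.8 kb downstream passed in 5, 5 and 4, with adjusted p of up to 0.0627, 0.29 and 0.0543. Lost regions numbered 10 to 19 at 30 min, 15 to 22 at 1 h and 12 to 23 at 2 h without 1 library, and gained ones 8 to 19, 14 to 23 and 15 to 22, since 1 list then decides. The regions that could be lost then numbered 88 to 114, and those that could be gained 43 to 69. No named shift that passed in either fit changed direction.

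In this paragraph the percentages are shares of all regions in the same fit. The counts of calls are out of the 66 tested regions of the loci unless another number is given. At an adjusted p under 0.05 there were 3 lower and 2 higher at 30 min (1.49% and 0.702%), 9 and 5 after 1 h (8.18% and 5.74%) and 12 and 5 after 2 h (11.1% and 8.34%). Fragments over the library background gave 4 lower at 30 min (1.27%) and 4 lower and 2 higher at 1 h (5.16% and 4.26%); centred, an alternative chosen after seeing the data, they gave 3 lower at 30 min (1.3%), 7 lower and 1 higher at 1 h (6.63% and 3.48%) and 9 lower at 2 h (9.37%). A mean trend with a robust prior gave 1 lower at 30 min (0.437%), 5 lower and 1 higher at 1 h (4.43% and 3.1%) and 8 lower at 2 h (6.83%). Ranking by −log10 p-value gave 1 higher at 1 h (1.13%) and 1 at 2 h (2.41%), and ranks taken over every peak in a list gave 0 lower and 2 higher at 1 h (1.02% and 0.986%). Regions in at least 2 lists gave 5 of 134 lower at 1 h (4.33%) and 0 of 134 higher at 2 h (2.36%). Within gene bodies alone 1 of 43 was lower at 1 h, and 5 and 6 of 24 were gained at 1 h and 2 h, against 6 and 7 of 28 within 5 kb. With −log10 q of at least 5, of 65 regions 3, 6 and 7 were lost after 30 min, 1 h and 2 h (10.8%, 14.6% and 16.9%), and of 31 regions 8, 11 and 17 were gained (12.8%, 23.6% and 29.4%). Core words numbered 0.275 per 100 bp when only GGGAA and TTCCC were counted. The cause of these differences was not tested beyond the number of libraries and regions in each fit.

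Replicates of the same number were not paired by their deviations (correlations 0.0172 to 0.0403 over 6 pairs of times). With the replicate block, 1 region was lower at 1 h (1.88% of all tested regions) and 1 higher at 2 h (1.8%): the calls at Plcg2 3.3 kb upstream at 1 h (adjusted p = 0.0138), Lyn 0.8 kb downstream at 2 h (0.0102) and Plcg2 31.1 kb downstream at 2 h (0.0137) missed the threshold, and no other call did.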
